A study of Komagataella pastoris with 12 samples.

Results

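The thermotolerant yeast strain G14 was compared with its parent at 30 °C, the temperature without heat stress, in 6 of the 12 RNA-seq libraries of the study. G14_30 is strain G14 grown at 30 °C and Parent_30 is the parent grown at 30 °C, with 3 biological replicates each. The parent is a recombinant *Komagataella phaffii* GS115, a methylotrophic yeast used to secrete foreign proteins, that carries a gene for a recombinant lipase, and G14 carries the same gene. G14 is 1 isolate, obtained from the parent by atmospheric and room temperature plasma mutagenesis followed by growth at stepwise higher temperatures and a plate screen for lipase secretion, so the values describe 1 clone. Both strains were grown in YPD, a rich glucose medium, to log phase before RNA was extracted. The same strains grown at 37 °C (G14_37 and Parent_37, 3 libraries each) gave the same strain comparison in other libraries, fitted in the same model. All 5080 genes and transcripts in the deposited table were compared, of which 3219 have a described product and 1861 do not.

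Heat shock proteins are molecular chaperones. They bind unfolded proteins and help them fold, dissolve aggregates, or carry them into the endoplasmic reticulum (ER) and the mitochondria. Hsp70 and Hsp90 work with co-chaperones that set the pace of their ATP cycle, and in *Saccharomyces cerevisiae* most of these genes are driven by the transcription factor Hsf1, with Msn2 and Msn4 acting on a wider group of stress genes.

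Expression was measured as FPKM, the number of fragments on a gene scaled to its length and to the depth of the library, and differences are given on the log2(FPKM + 1) scale as G14_30 minus Parent_30, with the standard error (SE) of the fit. A gene was called when its adjusted p was under 0.05 and its log2 fold change was over 1 in either direction. Each G14_30 library held 13450548 to 22047040 fragments on genes and each Parent_30 library 13428637 to 17294596, so that a single fragment on 1 kb of gene was worth 0.042 to 0.082 FPKM. Each value is a mean over a culture, so a change in all cells and a change in part of the cells cannot be told apart. In this comparison 146 genes (2.87% of all tested) were called higher in G14_30 and 228 (4.49%) lower. Most rises were small. Of the 146, 113 lay between 1 and 1.5 on the log2 scale and 4 above 2, with a median of 1.22. Of the 228 falls, 116 lay between 1 and 1.5 and 61 above 2 in size, with a median of -1.5. The libraries of the strains did not overlap for any of the 374 called genes (7.36% of all), which was also the case for 59.5% of all genes. When each library was scaled to the same sum of FPKM (TPM), the median gene moved from -0.03 to 0.15 and the calls to 248 higher and 178 lower, so that 58.2% of the calls were rises, against 39.0% with the deposited scaling.

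**Figure D1:**
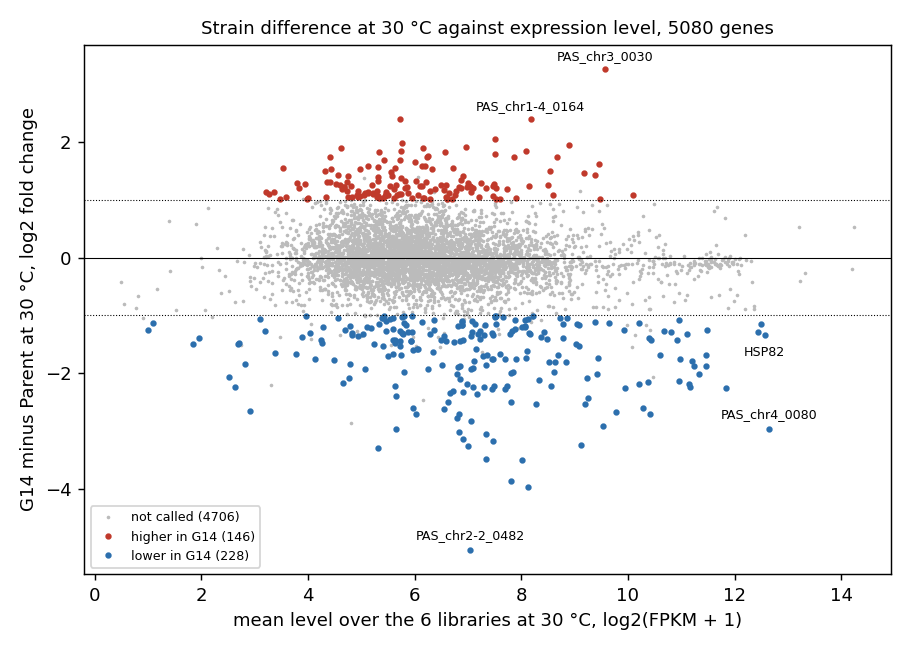
Log2 fold change of G14 minus Parent at 30 °C (vertical axis) against the mean level over the 6 libraries, as log2(FPKM + 1) (horizontal axis), with 1 point for each of 5080 genes. The 146 genes called higher and the 228 called lower are coloured, and the dotted lines mark a log2 fold change of 1 in either direction. The falls reach -5.05 and include genes of high level, whereas 1 rise passed 3.

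The chaperone genes were the clearest group among the falls. Of the 19 genes described as HSP70, HSP90 or their partners, 11 (57.9%, against 4.49% of all genes) fell in G14_30 and 0 rose. The median log2 fold change of the 19 was -1.29, against -0.03 over all genes. A list of 63 genes described as chaperones or folding enzymes shares members with the first and holds a vacuolar transporter chaperone gene (PAS_chr4_0290) by its name only. Of the 63, 14 (22.2%) fell and 1 (1.59%) rose, against 4.49% and 2.87% of all genes. The FPKM of the 19 genes summed to 21117, 22377 and 20516 in the G14_30 libraries, against 56817, 56724 and 51090 in the Parent_30 libraries. The group thus took 2.01% to 2.24% of all FPKM in G14_30 and 4.49% to 4.95% in Parent_30. Under TPM scaling 10 of the 19 were still called lower, against 178 of all 5080 genes. Their median was then -1.10, against 0.15 over all genes.

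In the cytosol, the gene of Hsp90 itself (PAS_chr1-4_0130, HSP82), the chaperone that matures kinases and other client proteins, had 3346, 3488 and 3454 FPKM in G14_30, against 9104, 8888 and 8108 FPKM in Parent_30. Each G14_30 library was below each Parent_30 library, and the log2 fold change was -1.34 (SE 0.36, adjusted p = 0.0174). The call was lost without G14_30 replicate 1, Parent_30 replicate 1 or Parent_30 replicate 2, with a log2 fold change between -1.39 and -1.15 in all the alternatives tried. SSA3 (PAS_chr3_0230), an Hsp70 of the stress response, had 3485, 3837 and 2496 FPKM in G14_30, against 8390, 8099 and 7180 FPKM in Parent_30. The groups were again apart, with a log2 fold change of -1.29 (SE 0.24, adjusted p = 0.00226). SSA1 (PAS_chr4_0552), the other cytosolic Hsp70 among the genes listed by the study, had 3340, 3036 and 3521 FPKM in G14_30 and 6223, 6275 and 5868 FPKM in Parent_30. These libraries did not overlap, with SDs of 245 FPKM in G14_30 and 222 FPKM in Parent_30 (n = 3 each). The fit, whose spread also comes from the 37 °C libraries, gave a log2 fold change of -0.89 with an SE of 0.60. SSA1 was not called (adjusted p = 0.31).

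Several partners of Hsp70 and Hsp90 fell by more than HSP82 and SSA3 did, as values side by side and without a test between genes. HSP104 (PAS_chr1-3_0102), a disaggregase that cooperates with Hsp40 and Hsp70, had 894, 980 and 607 FPKM in G14_30, against 3995, 3767 and 3371 FPKM in Parent_30. FES1 (PAS_chr2-1_0042), a nucleotide exchange factor of cytosolic Hsp70, had 744, 840 and 641 FPKM in G14_30, against 3329, 3381 and 2955 FPKM in Parent_30. Both were more than 4 times lower in G14_30, with log2 fold changes of -2.19 (SE 0.22, adjusted p = 4.06e-05) and -2.12 (SE 0.16, adjusted p = 4.79e-06). The type II HSP40 gene PAS_chr2-2_0151, whose product activates Ssa1, fell to 1044 ± 161 FPKM in G14_30, against 3804 ± 300 FPKM in Parent_30 (SD, n = 3 each). The Hsp90 side moved the same way. HCH1 (PAS_chr3_0170), an activator of the Hsp90 ATPase, averaged 1211 ± 43.1 FPKM in G14_30 and 4466 ± 311 FPKM in Parent_30, and STI1 (PAS_chr2-1_0518), the adaptor between Hsp70 and Hsp90, averaged 1056 ± 77.6 FPKM in G14_30 and 2839 ± 179 FPKM in Parent_30 (SD, n = 3 each). The gene described as an essential Hsp90 co-chaperone (PAS_chr2-1_0323, SDH5 in the study's list) fell by 2.22 on the log2 scale.

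Chaperones of the ER and the mitochondria were among the falls as well. KAR2 (PAS_chr2-1_0140), the Hsp70 of the ER lumen through which secreted proteins enter and fold, had 1390, 1342 and 1307 FPKM in G14_30, against 4374, 4508 and 4047 FPKM in Parent_30. Its log2 fold change was -1.68 (SE 0.27, adjusted p = 0.00102). A DnaJ homolog of the ER lumen (PAS_chr2-2_0015) fell to 92.7 ± 11.4 FPKM in G14_30, against 295 ± 26.1 FPKM in Parent_30 (SD, n = 3 each). Calnexin (PAS_chr2-1_0322), which binds unfinished glycoproteins, had 616 ± 29.4 FPKM in G14_30 and 1109 ± 61.5 FPKM in Parent_30 and was not called, at -0.85 (SE 0.21, adjusted p = 0.0113). In the mitochondria, the matrix chaperone gene PAS_chr2-1_0324 had the largest fall of either list. It had 249, 294 and 179 FPKM in G14_30, against 1653, 1516 and 1338 FPKM in Parent_30, a log2 fold change of -2.66 (SE 0.22, adjusted p = 1.01e-05). MDJ1 (PAS_chr2-2_0323), the Hsp40 of the matrix, fell by 2.08 on the log2 scale, and the mitochondrial chaperonin (PAS_chr4_0158) fell by 1.27. The single called rise in these lists was PAS_chr3_0116, an ATP-dependent chaperone of the mitochondrial inner membrane, with 174 ± 6.20 FPKM in G14_30 and 64.8 ± 5.78 FPKM in Parent_30 (SD, n = 3 each). It lies in the stretch of chromosome 3 described further down.

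**Figure D2:**
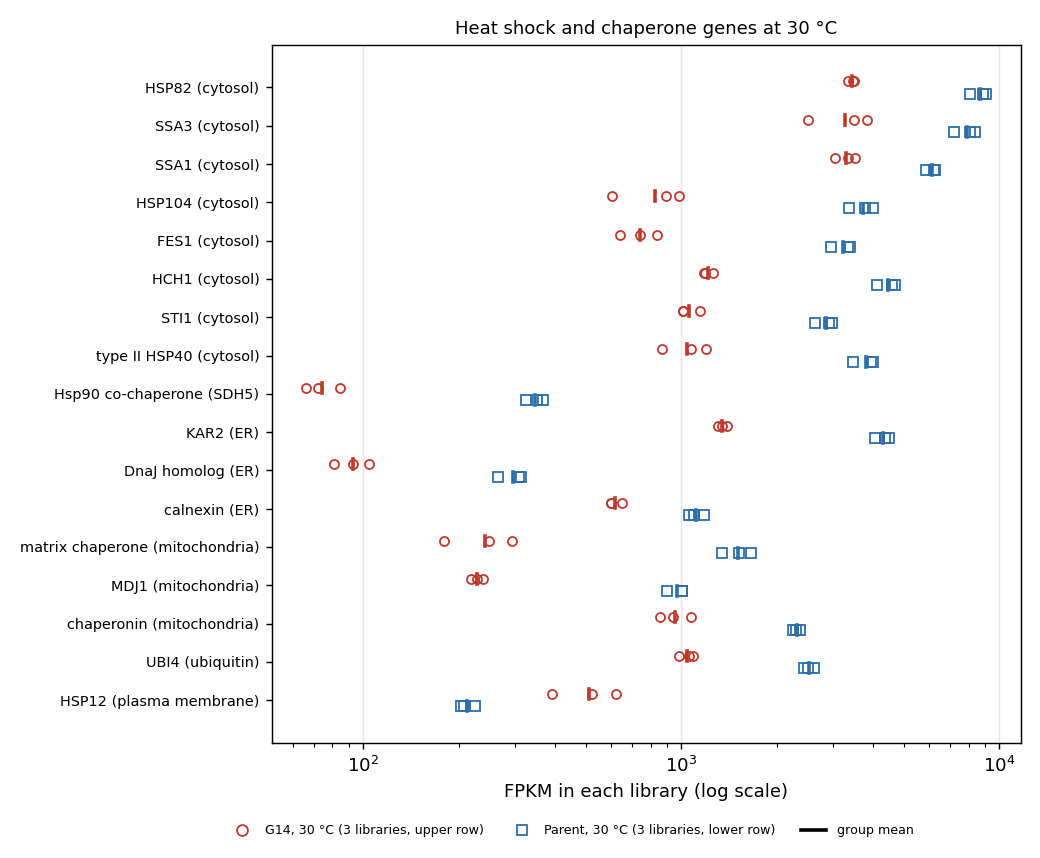
FPKM of 17 heat shock, chaperone and ubiquitin genes in each library at 30 °C (logarithmic horizontal axis), with G14 libraries as circles above Parent libraries as squares and group means as vertical ticks. The strains do not overlap for any gene drawn, G14 is lower for all but HSP12, and SSA1 and calnexin are shown although they were not called.

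Among the 11 heat shock genes listed by the study, 9 (81.8%, against 4.49% of all genes) were called lower. SSA1 was not called, and HSP12 was called higher, as were 2.87% of all genes. The study reported its heat shock and ubiquitin genes from these same libraries, so their direction is not independent evidence. HSP12 (PAS_chr4_0627), a small protein that protects membranes, had 524, 622 and 391 FPKM in G14_30, against 207, 225 and 203 FPKM in Parent_30, with no overlap and a log2 fold change of 1.25 (SE 0.18, adjusted p = 0.000445). The polyubiquitin gene UBI4 (PAS_chr4_0762), which supplies ubiquitin under stress, fell to 1041 ± 55.8 FPKM in G14_30, against 2522 ± 91.7 FPKM in Parent_30 (SD, n = 3 each). BUL1 (PAS_chr2-2_0022), a component of the Rsp5 ubiquitin ligase complex, fell by 1.68 on the log2 scale. No other gene of the 7 in the study's ubiquitin list was called, so 2 (28.6%, against 4.49% of all genes) were called lower. HSF1 (PAS_chr2-1_0026), the heat shock transcription factor, had 73.8, 67.1 and 66.4 FPKM in G14_30 and 63.8, 75 and 71.8 FPKM in Parent_30. The groups overlapped, with a log2 fold change of -0.02 and an SE of 0.10. MSN4 (PAS_chr2-1_0723), the general stress activator, had 102 ± 15.1 FPKM in G14_30 and 197 ± 22.8 FPKM in Parent_30 (SD, n = 3 each) at a log2 fold change of -0.95 (SE 0.30, adjusted p = 0.0374), short of the fold threshold.

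The genes for phosphate uptake and storage formed another group with falls. Yeasts take up inorganic phosphate through plasma membrane transporters and keep it in the vacuole as polyphosphate, made by the vacuolar transporter chaperone (VTC) complex, which is not a protein-folding chaperone. The high-affinity phosphate transporter gene PAS_chr4_0337 had 31.3, 42.5 and 43.9 FPKM in G14_30, against 708, 388 and 331 FPKM in Parent_30. Every G14_30 library was at least several times below every Parent_30 library, and the log2 fold change was -3.50 (SE 0.40, adjusted p = 8.43e-05). The Na+/Pi cotransporter (PAS_chr2-1_0235) averaged 51.4 ± 6.85 FPKM in G14_30 and 134 ± 25.7 FPKM in Parent_30 (SD, n = 3 each). The VTC gene PAS_chr4_0290 and the polyphosphate gene PAS_chr2-2_0420 fell by 1.4 and 1.3 on the log2 scale. A further gene described as a high-affinity phosphate transporter (PAS_chr3_0141) had 257 ± 24.4 FPKM in G14_30 and 462 ± 60.6 FPKM in Parent_30 and was not called at -0.84. In a list of 10 phosphate and polyphosphate genes made after these values were seen, 4 were called lower and 0 higher, and the median was -0.89. Over all genes the shares were 4.49% lower and 2.87% higher.

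Genes for nitrogen sources moved in both directions. In a list of 38 genes for the uptake and assimilation of nitrogen sources, also made after the values were seen, 9 were called lower and 4 higher. Of all genes, 4.49% were called lower and 2.87% higher. NADP-dependent glutamate dehydrogenase (PAS_chr1-1_0107), which fixes ammonium into glutamate, had 1272, 1058 and 558 FPKM in G14_30, against 3027, 3137 and 3008 FPKM in Parent_30. The G14_30 libraries were spread but all below those of Parent_30, with a log2 fold change of -1.75 (SE 0.46, adjusted p = 0.0155), and the call was lost without G14_30 replicate 3. An ammonium permease (PAS_chr2-2_0391) fell to 81 ± 21.9 FPKM in G14_30, against 270 ± 26.2 FPKM in Parent_30 (SD, n = 3 each). A spermine transporter gene (PAS_chr1-3_0215) fell by 2.49 and allantoicase (PAS_chr2-1_0749), which releases urea from allantoate, by 1.58 on the log2 scale. The general amino acid permease PAS_chr1-4_0479 was at -1.15 (adjusted p = 0.0289), a call that did not hold under TPM scaling or without any 1 of G14_30 replicates 2 and 3 and Parent_30 replicates 1 and 2. The gene described as a nitrogen catabolite repression regulator (PAS_chr2-1_0490) was the most strongly expressed transcription regulator among the falls, with 741, 923 and 775 FPKM in G14_30, against 3879, 3941 and 3577 FPKM in Parent_30 (log2 fold change -2.23, SE 0.18, adjusted p = 9.23e-06). An activator of nitrogen-repressed genes (PAS_chr4_0626) fell to 9.50 ± 1.98 FPKM in G14_30, against 43.0 ± 5.45 FPKM in Parent_30 (SD, n = 3 each).

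The 4 called rises of this list were all in genes described as permeases or transporters, or similar to them. A urea and polyamine transporter (PAS_chr3_0024) had 54.5, 56.0 and 58.0 FPKM in G14_30, against 19.97, 21.3 and 21.4 FPKM in Parent_30. The values were close within each strain, with a log2 fold change of 1.39 (SE 0.15, adjusted p = 6.51e-05). A gene with the same description (PAS_chr3_0282) was at 1.30. An allantoin permease (PAS_chr1-1_0287) averaged 105 ± 6.27 FPKM in G14_30 and 41.7 ± 4.41 FPKM in Parent_30, and a gene similar to an allantoate permease (PAS_chr3_0028) averaged 156 ± 12.8 FPKM in G14_30 and 52.7 ± 5.68 FPKM in Parent_30 (SD, n = 3 each). Over all 143 genes described as transporters or permeases, the median was 0.07. Of them, 11 (7.69%, against 2.87% of all genes) were called higher and 8 (5.59%, against 4.49%) lower. Under TPM scaling these counts were 16 and 7, against 248 and 178 of all 5080 genes. In a fit of the 6 libraries alone they were 12 and 14, against 152 and 258.

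Of 55 genes in a list on iron, copper and heme, 5 (9.09%, against 4.49% of all genes) fell and 0 rose by limma. Voom gave the same counts, while TPM scaling gave 4 and 1, against 178 lower and 248 higher of all 5080 genes. By the unadjusted p under 0.05 alone, 18 were lower and 8 higher, against 19.6% and 19.8% of all 5080 genes. The ferric reductase gene PAS_chr4_0240, whose product frees iron from siderophores for uptake, had 285, 128 and 494 FPKM in G14_30, against 975, 1133 and 1095 FPKM in Parent_30. The G14_30 libraries differed widely among themselves but stayed below those of Parent_30, with a log2 fold change of -2.02 (SE 0.48, adjusted p = 0.00927). Of the 5 falls, 3 were regulators that respond to heme rather than handle it: PAS_chr4_0638 at -1.66 and PAS_chr3_0638 at -1.34, both subunits of the Hap CCAAT-binding complex that drives respiratory genes, and PAS_chr2-1_0017 at -1.16, a repressor of hypoxic genes. The remaining one, the siderophore transporter PAS_chr3_0315, was of low level, with 2.47 ± 0.345 FPKM in G14_30 and 8.62 ± 0.926 FPKM in Parent_30 (SD, n = 3 each). The ferrioxamine B transporter (PAS_chr2-1_0012) of the same family, which the list did not take in, averaged 11.1 ± 1.29 FPKM in G14_30 and 42.4 ± 2.48 FPKM in Parent_30 (SD, n = 3 each), a log2 fold change of -1.84. A putative vacuolar Fe2+/Mn2+ transporter (PAS_chr3_0372) had 320 ± 20.6 FPKM in G14_30 and 156 ± 16.6 FPKM in Parent_30, a call at 1.03 that was lost without G14_30 replicate 1 or Parent_30 replicate 3.

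**Figure D3:**
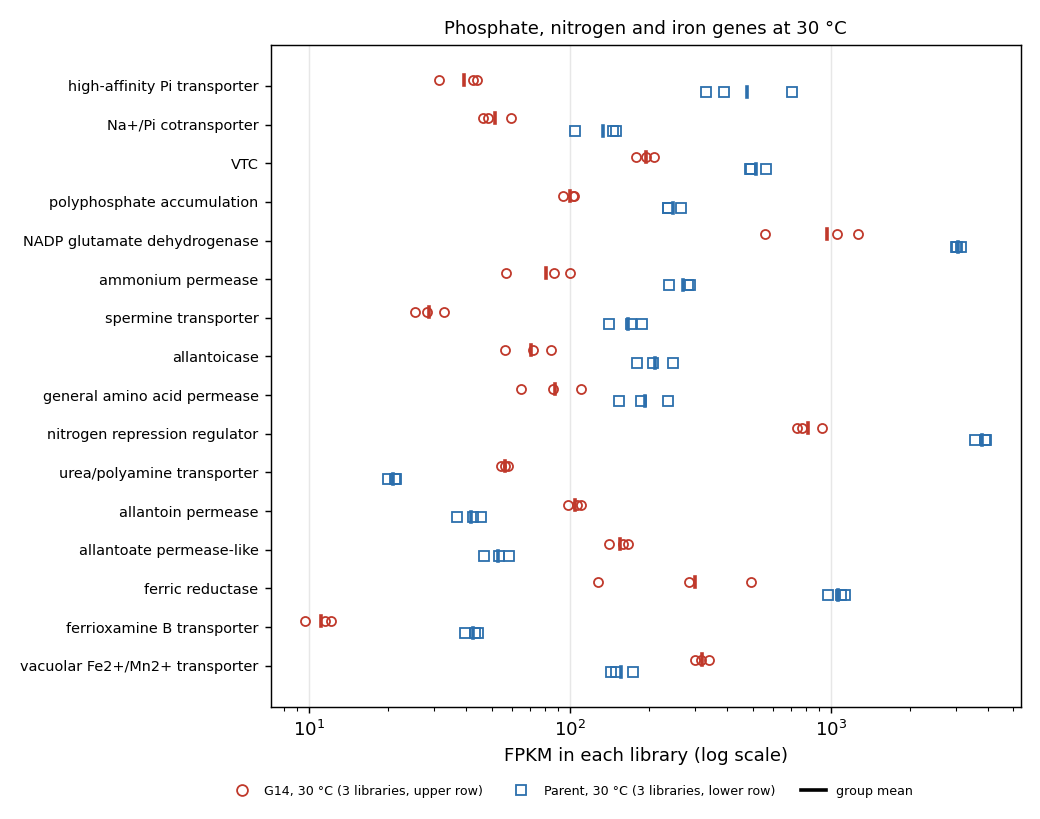
FPKM of 16 phosphate, nitrogen and iron genes in each library at 30 °C (logarithmic horizontal axis), with G14 libraries as circles above Parent libraries as squares and group means as vertical ticks. The strains do not overlap for any gene drawn. The ferric reductase libraries of G14 span 128 to 494 FPKM, and the urea/polyamine, allantoin, allantoate and vacuolar Fe2+/Mn2+ transporter genes are higher in G14.

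The 3 largest falls were in genes with no described product. PAS_chr2-2_0482 had 5.16, 9.26 and 6.11 FPKM in G14_30, against 284, 231 and 247 FPKM in Parent_30, a 37.1-fold lower mean, with a log2 fold change of -5.05 (SE 0.63, adjusted p = 0.000149). PAS_chr3_0486 averaged 32.4 ± 3.13 FPKM in G14_30 and 525 ± 85.9 FPKM in Parent_30, and PAS_chr4_0851 averaged 29.4 ± 11.9 FPKM in G14_30 and 419 ± 68.3 FPKM in Parent_30 (SD, n = 3 each). In all 3 genes each G14_30 library was far below each Parent_30 library. PAS_chr3_0042, a protein kinase of vacuolar protein sorting, fell to 25.7 ± 3.09 FPKM in G14_30, against 298 ± 33.6 FPKM in Parent_30, and the pirin gene PAS_chr1-4_0145 fell to 106 ± 12.6 FPKM in G14_30, against 1004 ± 95 FPKM in Parent_30 (SD, n = 3 each). The fall of highest level was PAS_chr4_0080, of no described product. It had 1464, 1730 and 1176 FPKM in G14_30, against 11962, 11731 and 10187 FPKM in Parent_30, a log2 fold change of -2.97 (SE 0.23, adjusted p = 7.31e-06).

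Several of the described falls belong to metabolism and genome maintenance. Riboflavin synthase (PAS_chr4_0081), the last enzyme of vitamin B2 synthesis, had 158, 196 and 162 FPKM in G14_30, against 1360, 1332 and 1199 FPKM in Parent_30, and the groups lay far apart. Both genes described as phenylpyruvate decarboxylases, which in *S. cerevisiae* lead amino acid breakdown towards fusel alcohols, fell. PAS_chr4_0314 averaged 353 ± 61.4 FPKM in G14_30 and 2125 ± 204 FPKM in Parent_30, and PAS_chr3_0095 averaged 190 ± 16.5 FPKM in G14_30 and 1028 ± 142 FPKM in Parent_30 (SD, n = 3 each). RAD50 (PAS_chr1-4_0513), a subunit of the complex that processes DNA double-strand breaks, had 16.6, 17.1 and 16.2 FPKM in G14_30, against 118, 106 and 93.8 FPKM in Parent_30. Its log2 fold change was -2.59 (SE 0.11, adjusted p = 8.91e-08). Among 109 lipid genes 6 (5.50%, against 4.49% of all genes) fell and 1 (0.917%, against 2.87%) rose. Under TPM scaling 2 were called lower and 4 higher, against 178 and 248 of all 5080 genes. The falls included farnesyl pyrophosphate synthetase (PAS_chr1-4_0314), which feeds sterol synthesis, at -1.14 (SE 0.16), and the delta-9 fatty acid desaturase (PAS_chr2-1_0072), at -1.08 (SE 0.22). Both calls were lost under TPM scaling, and that of the desaturase also without G14_30 replicate 3.

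Called genes often lay next to each other, in both directions. Of the 228 called lower, 80 (35.1%) had a direct neighbour that was also called lower, whereas 426 of all 5080 genes (8.39%) had such a neighbour. Of the 146 called higher, 44 (30.1%) had a direct neighbour also called higher, against 276 of all genes (5.43%). In 51 of the 80 falls the neighbour was on the other strand. PAS_chr4_0080 and PAS_chr4_0081 open a run of 4 genes called lower on chromosome 4, and the matrix chaperone PAS_chr2-1_0324 opens a run of 3 on chromosome 2. Whether the counting used strand is not given in the sources used here, and reads of a gene and of an overlapping neighbour on the other strand cannot be told apart.

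The largest rise was PAS_chr3_0030, of no described product, with 1431, 1270 and 1436 FPKM in G14_30, against 131, 140 and 157 FPKM in Parent_30. The mean was 9.64-fold higher in G14_30, with a log2 fold change of 3.26 (SE 0.51, adjusted p = 0.000699). Both genes described as similar to Pry1, which in *S. cerevisiae* is a secreted protein that binds sterols, were among the rises. PAS_chr1-4_0164 had 531, 463 and 460 FPKM in G14_30, against 91.2, 88.7 and 94.2 FPKM in Parent_30, and PAS_chr3_0076 had 594, 579 and 698 FPKM in G14_30, against 168, 183 and 209 FPKM in Parent_30. Neither pair overlapped, and their log2 fold changes were 2.39 (SE 0.16) and 1.74 (SE 0.28). A putative carboxylic acid permease (PAS_chr1-1_0284) averaged 37.8 ± 3.85 FPKM in G14_30 and 9.50 ± 1.02 FPKM in Parent_30, and the catabolic serine deaminase (PAS_chr2-2_0408) averaged 109 ± 3.20 FPKM in G14_30 and 35.7 ± 2.22 FPKM in Parent_30 (SD, n = 3 each).

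A number of the other rises came from 2 stretches of the genome, chosen after their values were seen. For scale, 2346 of all 5080 genes were above 0, 2.87% were called higher and 4.49% lower. On chromosome 3, 41 of the 43 genes from PAS_chr3_0113 to PAS_chr3_0158 (positions 231895 to 320016 in the deposited table) were above 0, 18 were called higher and 0 lower, and the median was 0.94 with quartiles of 0.64 and 1.09. On chromosome 4, all 21 genes from PAS_chr4_0860 to PAS_chr4_1001 (positions 1617132 to 1649464) were above 0 and 12 were called higher, with a median of 1.22. That stretch holds mating-type genes. In *S. cerevisiae* the spare mating-type copy at HML is kept silent by Sir proteins. PAS_chr4_0878, which the deposited table takes as the silenced ALPHA2 at HML, had 81.8, 90.1 and 85.2 FPKM in G14_30, against 22.1, 23.2 and 18.2 FPKM in Parent_30. PAS_chr4_1001, with an alpha-1 mating-type domain, had 87.3, 114 and 61.6 FPKM in G14_30, against 14, 17.1 and 15.5 FPKM in Parent_30. Both were apart in every library. The signal peptidase subunit PAS_chr4_0874, which acts on secreted proteins, rose by 1.85 on the log2 scale, and PAS_chr4_0869, of unknown function, by 1.94. Outside both stretches, 116 genes were called higher and 228 lower among 5016.

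Smaller differences were seen in genes of the cell cycle and the cell surface. Of 97 genes of the cell cycle, spindle and cytokinesis, 5 (5.15%, against 2.87% of all genes) were called higher and 1 (1.03%, against 4.49%) lower. Under TPM scaling 10 were called higher and 1 lower, against 248 and 178 of all 5080 genes. By the adjusted p alone, 29 were higher and 6 lower, against 14.9% and 13.7% of all genes, and the median was 0.21. PAS_chr3_0293, a catalytic core subunit of the anaphase-promoting complex, had 74.8, 71.3 and 72.6 FPKM in G14_30, against 21.1, 24.3 and 27.7 FPKM in Parent_30. Of 95 genes of DNA replication and repair, 3 were called higher and 2 lower, shares of 3.16% and 2.11% against 2.87% and 4.49% of all genes, and the median was 0.06. The falls, RAD50 (PAS_chr1-4_0513) at -2.59 and PAS_chr2-1_0135, a helix-hairpin-helix protein of DNA repair, at -2.38, were larger in size than the rises. Both DNA primase subunits and thymidylate synthase, which make primers and thymidine nucleotides for replication, lay just past the fold threshold. The primase subunits averaged 46.5 ± 2.76 FPKM in G14_30 and 21.0 ± 2.30 FPKM in Parent_30 (PAS_chr2-1_0512) and 64.2 ± 2.29 FPKM in G14_30 and 31.1 ± 2.27 FPKM in Parent_30 (PAS_chr4_0323), and thymidylate synthase (PAS_chr3_0996) averaged 138 ± 0.816 FPKM in G14_30 and 68.2 ± 9.06 FPKM in Parent_30 (SD, n = 3 each). The call of PAS_chr4_0323 was lost without G14_30 replicate 3 or Parent_30 replicate 2, and that of thymidylate synthase without Parent_30 replicate 1. Histone H1 (PAS_chr1-4_0282), which packs linker DNA, had 526 ± 37.3 FPKM in G14_30 and 249 ± 39.3 FPKM in Parent_30 (SD, n = 3 each). Its call (adjusted p = 0.0443) was lost without any 1 of the 6 libraries at 30 °C, without any 1 of the Parent_37 libraries, and by voom on the recovered fragments.

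Among all 5080 genes, 2.87% were called higher and 4.49% lower. By the adjusted p alone these shares were 14.9% and 13.7%, and by the unadjusted p under 0.05 they were 19.8% and 19.6%. Of 44 cell wall genes, 0 were called higher and 1 lower, yet 15 were higher and 2 lower by the adjusted p alone. Their median was 0.31. Of 58 glycosylation genes, 0 were called either way, and 15 were higher and 2 lower by the adjusted p alone, with a median of 0.19. By the unadjusted p under 0.05, 17 cell wall genes were higher and 3 lower and 21 glycosylation genes were higher and 4 lower, and voom gave the same counts of calls. Under TPM scaling 3 cell wall genes and 1 glycosylation gene were called higher, against 248 of all 5080 genes. The 84 cytosolic ribosomal protein genes and the 39 proteasome genes had 0 calls by limma and by voom. By the unadjusted p under 0.05, 1 ribosomal protein gene was lower and 0 higher, and 4 proteasome genes were lower and 1 higher. A fit of the 6 libraries at 30 °C alone again gave 0 calls, where 152 of all 5080 genes were called higher and 258 lower. By the adjusted p of that fit alone, 3 ribosomal protein genes were lower and 0 higher, and 11 proteasome genes were lower and 3 higher. The share of all genes by the adjusted p of that fit is not given here.

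**Figure D4:**
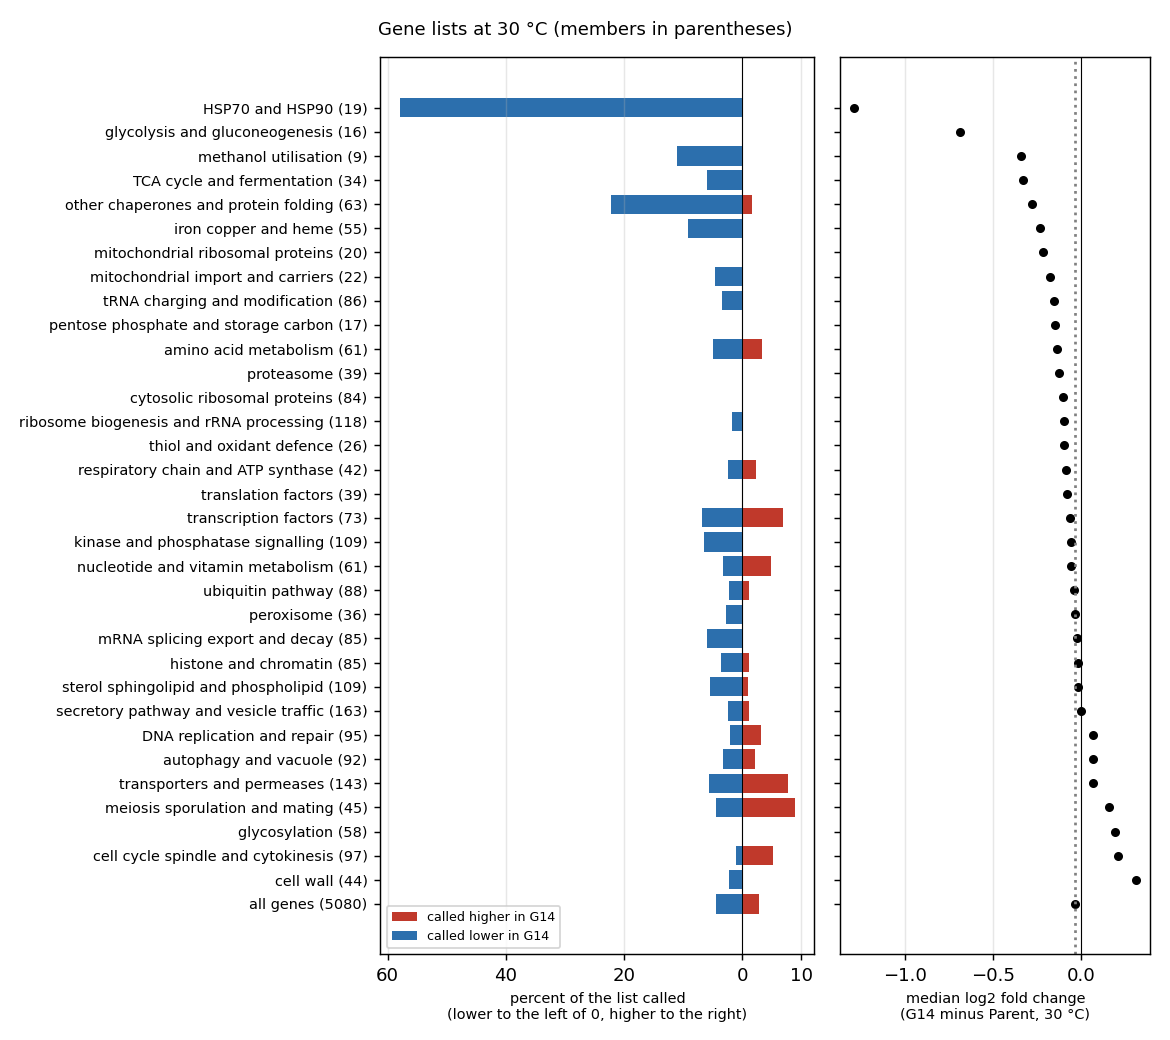
Share of each of 33 gene lists called in G14 against Parent at 30 °C (left, bars to the left of 0 for lower and to the right for higher, in percent) and its median on the log2 scale (right), ordered by the median, with all 5080 genes in the bottom row and as a dotted line. The HSP70 and HSP90 list stands at 57.9% lower and a median of -1.29, against 4.49% and -0.03 for all genes.

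Glycolysis had a low median without a call in the fit of all 12 libraries. Of 16 genes of glycolysis and gluconeogenesis, 15 were below 0, against 2734 of all 5080 genes, and the median was -0.69, against -0.03. By limma over the 12 libraries or by voom 0 were called, where limma called 2.87% of all genes higher and 4.49% lower. By the unadjusted p under 0.05, 1 was higher and 2 were lower, against 19.8% and 19.6% of all genes. The lowest member was at -2.47. In a fit of the 6 libraries at 30 °C alone, 1 was called lower and 0 higher, against 258 and 152 of all 5080 genes. The summed FPKM of the list was 31244, 35074 and 12566 in G14_30, against 43900, 36360 and 29402 in Parent_30. G14_30 replicate 3 thus stood apart, and without it the median was -0.28. Glyceraldehyde-3-phosphate dehydrogenase (PAS_chr2-1_0437), whose promoter is a usual driver of foreign genes in this yeast, had 9804, 11702 and 4239 FPKM in G14_30 and 12266, 10462 and 8751 FPKM in Parent_30, with overlap. Of 9 methanol utilisation genes, 1 was called lower (11.1%, against 4.49% of all genes) and 0 higher. It was dihydroxyacetone kinase (PAS_chr3_0841), which fell by 1.26 on the log2 scale. The lowest member of the list was at -2.86 and was not called. In a fit of the 6 libraries at 30 °C alone, 2 of the 9 were called lower and 0 higher, against 258 and 152 of all 5080 genes. Alcohol oxidase (PAS_chr4_0821), which is repressed by glucose, was low in both strains, with 8.69, 10.1 and 10.7 FPKM in G14_30 and 6.57, 5.98 and 6.87 FPKM in Parent_30.

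The study listed 9 peroxisomal genes as upregulated in these libraries, so their direction is not independent evidence. Of the 9, 8 were above 0, against 2346 of all 5080 genes, and 2 (22.2%, against 2.87%) were called higher and 0 lower. Of 36 genes with a peroxisomal description in the deposited table, 0 were called higher and 1 (2.78%) lower by limma, and voom gave the same. Over all genes the shares by limma were 2.87% and 4.49%. Among the 36, 19 were below 0, against 2734 of all 5080 genes, and the median was -0.04, against -0.03. By the unadjusted p under 0.05, 4 were higher and 1 lower, against 19.8% and 19.6% of all genes. A fit of the 6 libraries at 30 °C alone gave the same calls, where 152 of all 5080 genes were called higher and 258 lower. By the adjusted p of that fit alone, 7 of the 36 were higher and 11 lower, and the share of all genes is not given here. In the fit of all 12 libraries 3 were higher and 1 lower by the adjusted p alone, against 14.9% and 13.7% of all genes. MPV17 (PAS_chr2-2_0273), which the deposited table describes as required for ethanol metabolism, had 53.3, 50.4 and 54.8 FPKM in G14_30, against 21.5, 25.6 and 29.5 FPKM in Parent_30 (log2 fold change 1.03, SE 0.15), and its call was lost without Parent_30 replicate 1. PMP47 (PAS_chr3_0099), which the deposited table describes as a mitochondrial NAD+ transporter, had 122, 134 and 131 FPKM in G14_30, against 59.7, 58.6 and 52.3 FPKM in Parent_30 (log2 fold change 1.17, SE 0.20). D-aspartate oxidase (PAS_chr3_0406) was at 0.61 with an adjusted p of 0.00372, under the fold threshold.

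Of the 7 antioxidant genes listed by the study 0 were called by limma, against 2.87% higher and 4.49% lower of all genes. By the unadjusted p under 0.05, 1 was higher and 2 were lower, against 19.8% and 19.6% of all genes. Catalase (PAS_chr2-2_0131), which splits hydrogen peroxide, had 98.8, 97.3 and 115 FPKM in G14_30 and 72, 70.1 and 60.7 FPKM in Parent_30. The libraries did not overlap, with SDs of 9.60 FPKM in G14_30 and 6.05 FPKM in Parent_30 (n = 3 each). The fit takes its spread from all 12 libraries, those at 37 °C included. It gave a log2 fold change of 0.61 with an SE of 0.59 (adjusted p = 0.492). AHP1 (PAS_chr1-4_0659), a thiol peroxidase by the study's naming and without a described product in the deposited table, had 546 ± 20.4 FPKM in G14_30 and 286 ± 13.6 FPKM in Parent_30 (SD, n = 3 each), at 0.93 (SE 0.20). SOD1 (PAS_chr4_0786), the cytosolic superoxide dismutase, and TSA1 (PAS_chr2-2_0220), the main thioredoxin peroxidase, were at -0.73 (SE 0.22) and -0.67 (SE 0.25).

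The same strain comparison at 37 °C used other libraries in the same model. The calls at 30 °C and at 37 °C share 1 estimate of the spread for each gene, so they are not fully independent. Of the 228 genes called lower at 30 °C, 201 were also called lower at 37 °C, which is 88.2% of the list at 30 °C and 27.7% of the list at 37 °C, where 14.3% of all genes were called lower. Of the 146 called higher, 57 were called higher at 37 °C (39.0% and 15.1% of the lists), against 7.42% of all genes, and 1, the ALPHA2 copy PAS_chr4_0878, was called lower. The log2 fold changes at both temperatures correlated with Pearson's r = 0.617 and Spearman's rho = 0.490 across 5080 genes, which are not independent replicates and share the scaling of the table. The genes lowered in G14 had a median of -1.5 at 30 °C and -2.77 at 37 °C, while those raised had medians of 1.22 and 0.78. In the test of the difference between the temperatures, 125 of the 228 lowered genes were called, 121 of them more negative at 37 °C, and 36 of the 146 raised genes, 35 of them more negative. Of all genes 15.4% were called in that test, 11.1% as more negative and 4.31% as more positive at 37 °C. The genes were chosen by their values at 30 °C, which this test subtracts, so that these counts and the medians are a description of the chosen genes only.

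The 19 HSP70 and HSP90 genes had a median of -1.29 at 30 °C and -3.29 at 37 °C, where 13 were called lower. The G14_37 libraries varied more among themselves (r of 0.863 to 0.959, against 0.977 to 0.996 in G14_30), and the summed FPKM of the 19 genes was 6809, 12981 and 15488 in G14_37, against 118959, 119062 and 107824 in Parent_37. Without G14_37 replicate 1, the lowest of them, the median at 37 °C was -2.85 and 13 were called lower. FES1 (PAS_chr2-1_0042) was at -2.12 and -5.10, KAR2 (PAS_chr2-1_0140) at -1.68 and -4.01, and HSP82 (PAS_chr1-4_0130) at -1.34 and -3.38. As examples outside the chaperones, the phosphate transporter PAS_chr4_0337 was at -3.50 and -2.78 and the ammonium permease PAS_chr2-2_0391 at -1.76 and -1.73. RAD50 (PAS_chr1-4_0513) was at -2.59 and -2.10, and PAS_chr3_0030 at 3.26 and 3.83. None of these 4 differences between the temperatures was called. That of RAD50 was 0.49 with an adjusted p of 0.03 by limma, and missed the call by the fold threshold only. The other phosphate genes named above were more negative at 37 °C, with no difference called. They were at -1.40 and -1.94 (PAS_chr4_0290), -1.30 and -1.65 (PAS_chr2-2_0420), -1.35 and -1.83 (PAS_chr2-1_0235), and -0.84 and -1.08 (PAS_chr3_0141). The nitrogen repression regulator PAS_chr2-1_0490 was at -2.23 and -4.30, and its difference was called. For comparison, in the parent the same 3 chaperone genes were at 1.42 (FES1), 1.06 (KAR2) and 1 (HSP82) in Parent_37 vs. Parent_30, a comparison that shares the Parent_30 libraries and in which 14% of all genes were called higher and 7.56% lower.

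**Figure D5:**
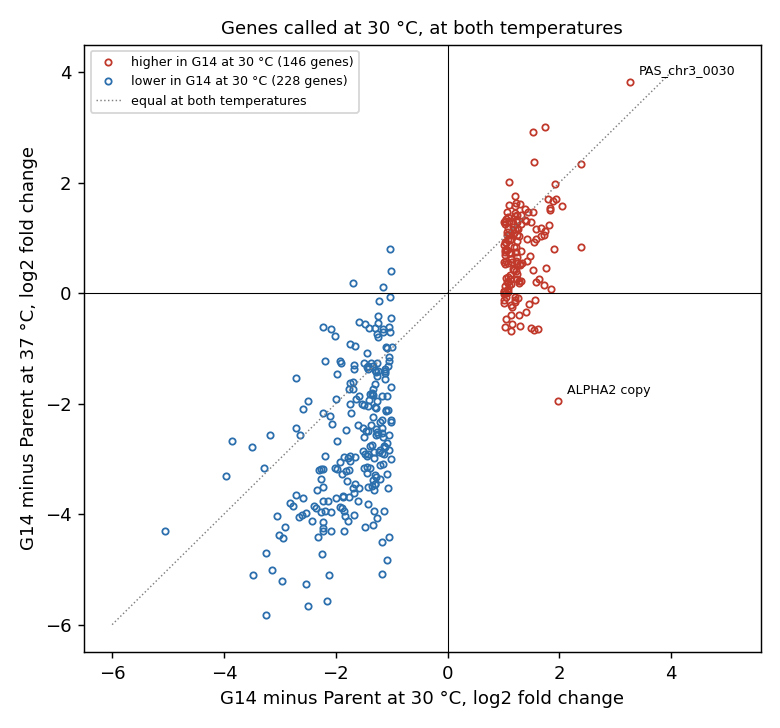
Log2 fold change of G14 minus Parent at 37 °C (vertical axis) against that at 30 °C (horizontal axis) for the 374 genes called at 30 °C, coloured by their direction at 30 °C, with a dotted line where both are equal. Most lowered genes lie under the line, with medians of -1.5 at 30 °C and -2.77 at 37 °C, and the ALPHA2 copy lies at 1.97 and -1.95.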

How the data were processed

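RNA of log-phase YPD cultures was sequenced as 150 bp paired-end NEBNext Ultra libraries. The authors mapped the reads to a *K. phaffii* genome with the PICHIAGENOME gene models, and their processing notes name CASAVA, HISAT2 2.0.5 and featureCounts 1.5.0-p3. They deposited FPKM values, not counts, for 12 libraries, and a list of transcripts outside the annotation that was not used. The deposited FPKM already carried a scaling between libraries, since median-of-ratios factors were 0.999 in every library while the sums of FPKM were 996968 to 1021079 in G14_30 and 1137306 to 1187966 in Parent_30. Whole fragments were recovered from the FPKM steps for 100% of values (within 0.05 of a whole number).

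Tests used limma 3.58.1 in R 4.3.3 on log2(FPKM + 1) for genes with a mean of at least 1 FPKM (all 5080 passed), with 1 model over the 4 groups of 3 libraries and a mean-dependent prior variance. Fold changes on this scale understate those of low genes. P-values were adjusted over all 5080 genes by the Benjamini-Hochberg method, and calls needed an adjusted p under 0.05 and a log2 fold change over 1. They measure the spread between the libraries, labelled biological replicates, of 1 evolved isolate and its parent at both temperatures. The scripts were tested on simulated data with 200 changed genes. Alternatives were another pseudocount, other filters, TPM and median-of-ratios scaling, the 6 libraries alone, voom on the recovered fragments, a test against the fold threshold (treat), a replicate block and each library left out.

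Gene lists were built from words in the deposited descriptions and from the study's gene table, 3 of whose 39 entries (HSP12, HSP104 and HSP82) were taken by the deposited description instead of the ID. The genes compared and the lists were chosen with earlier results of these data known. Named genes were the 15 largest rises and falls, the 5 called genes of highest level in each direction, up to 3 in each direction of each list (the most expressed member where fewer than 2 were called), the study's genes, and the 5 largest differences between temperatures in each direction; 60 of the 76 genes with several values in the text follow this rule, the other 16 were chosen after their values were seen, and the members named with a fold change only were taken likewise.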

Additional observations from a re-analysis of the deposited data

Results flagged for a closer look

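The strain difference in log2(FPKM + 1) at 37 °C minus that at 30 °C was tested as an interaction by limma, and the genes named in the text that were called both at 30 °C and in that test are given here with the interaction value. Negative values mean that G14 stood lower against its parent at 37 °C than at 30 °C. All of them use the same 12 libraries, the genes were chosen in part by their values at 30 °C, which the interaction subtracts, and no cause was tested.

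Among the chaperones of the cytosol the values were -2.98 for FES1 (PAS_chr2-1_0042), -2.08 for STI1 (PAS_chr2-1_0518), -2.03 for HSP82 (PAS_chr1-4_0130), -2.03 for the Hsp90 co-chaperone PAS_chr2-1_0323, -2.01 for HCH1 (PAS_chr3_0170), -2.005 for SSA3 (PAS_chr3_0230), -1.82 for the type II HSP40 (PAS_chr2-2_0151) and -1.76 for HSP104 (PAS_chr1-3_0102). In the ER and the mitochondria they were -2.33 for KAR2 (PAS_chr2-1_0140), -1.80 for the DnaJ homolog PAS_chr2-2_0015, -1.88 for MDJ1 (PAS_chr2-2_0323), -1.39 for the matrix chaperone PAS_chr2-1_0324 and -1.30 for the chaperonin PAS_chr4_0158. The ubiquitin genes BUL1 (PAS_chr2-2_0022) and UBI4 (PAS_chr4_0762) were at -1.93 and -1.19.

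Outside these groups, farnesyl pyrophosphate synthetase (PAS_chr1-4_0314) was at -2.81, the siderophore transporters PAS_chr3_0315 and PAS_chr2-1_0012 at -2.76 and -2.10, the pirin gene PAS_chr1-4_0145 at -2.59, PAS_chr4_0080 at -2.25, the nitrogen repression regulator PAS_chr2-1_0490 at -2.07, the sorting kinase PAS_chr3_0042 at -1.62 and riboflavin synthase (PAS_chr4_0081) at -1.31.

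Among genes that rose at 30 °C, the ALPHA2 copy PAS_chr4_0878 was at -3.92, the signal peptidase subunit PAS_chr4_0874 at -1.77, the alpha-1 domain gene PAS_chr4_1001 at -1.55 and the serine deaminase PAS_chr2-2_0408 at -1.39. The Pry1-like gene PAS_chr3_0076 was the exception, at 1.26.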

How the results depend on the processing

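The counts of 146 higher and 228 lower genes stayed within 1.5 times under every alternative except TPM scaling, which gave 248 higher (and 178 lower), and limma's treat test against the fold threshold, which left 21 higher and 79 lower. Treat also left 114 of the 783 genes whose strain difference differed between the temperatures, and 80 of the 258 genes called the same way at both. Leaving out each library in turn gave 127 to 152 higher, 202 to 256 lower, 661 to 906 for the difference between temperatures and 240 to 289 for the shared calls. Of the 138 called genes followed through the 22 alternatives, 58 kept their call in all, 80 lost it in at least 1, and 0 reversed. Of the uncalled genes, 1, AHP1 (PAS_chr1-4_0659), gained a call. The labels do not say whether same-numbered cultures were grown together. Deviations from the group means correlated at 0.61, 0.01 and 0.67 for same-numbered libraries of G14_30 and Parent_30. Replicates 1 and 3 correlated best with their own number, whereas G14_30 replicate 2 correlated best with Parent_30 replicate 1 (0.45). A replicate block gave 149 higher and 234 lower and, in a fit of the 6 libraries alone added after seeing the data, 153 higher and 267 lower. The 3 libraries a group limit the precision, and G14_30 replicate 3 stood apart for glycolysis and ammonium assimilation.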
